A study of Mus musculus with 44 samples.

Results

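The B7 family ligands are the surface proteins with which dendritic cells (DCs) deliver the second signal to T cells. The 5 members described here, *Cd80*, *Cd86*, *Icosl*, *Cd274* and *Pdcd1lg2*, were chosen by gene symbol among the 14699 genes of the deposited table, and each had 1 row. All 5 passed the filter of at least 1 CPM (reads scaled to a library total of 1000000) in at least 5 libraries, which left 11963 genes for testing. CD45+CD11c+MHCIIhigh cells had been sorted from the draining inguinal lymph node 24 h after injection at ZT3, ZT9, ZT15 or ZT21, where ZT counts hours from lights on in a cycle of 12 h light and 12 h dark. The 44 libraries came from 44 female mice of 8 to 12 weeks. Control mice that received B16-F10-OVA cells, a melanoma line that carries ovalbumin, gave 20 libraries labelled WT (5 per timepoint). *Clec9a-cre:Bmal1flox* mice that received the same cells gave 12 libraries labelled KO (3 per timepoint). Control mice with a sham injection of PBS gave the other 12, labelled PBS (3 per timepoint). The study and the labels call the control mice control or WT and give no further genotype for them. In the KO genotype, a Cre recombinase driven by *Clec9a*, a gene of conventional DCs and their precursors, acts on a floxed *Arntl*, which encodes the clock protein BMAL1. Cells of the sort that never expressed *Clec9a* would keep the gene. The study names 2 independent experiments, and the labels do not assign the mice to them, so a difference between experiments cannot be told apart from a difference between groups.

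CD80 and CD86 bind CD28, which co-stimulates T cells, and CTLA-4, which restrains them. ICOSL binds ICOS, a relative of CD28 on activated T cells. PD-L1 (encoded by *Cd274*) and PD-L2 (encoded by *Pdcd1lg2*) bind PD-1 and dampen T cells. DCs raise several of these proteins when they mature and travel to the lymph node.

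The members lie on 3 chromosomes of GRCm38, the assembly also called mm10. *Cd80* is at chr16:38457430-38495958 and *Cd86* at chr16:36568956-36666158, 1791 kb apart. *Icosl* is at chr10:78069368-78079525. *Cd274* (chr19:29362107-29388095) and *Pdcd1lg2* (chr19:29410919-29472927) are neighbours with 22.8 kb between them. The study deals with a transcription factor, BMAL1, that binds E-boxes. The 250 bases before the start of a transcript are therefore shown for *Cd80*, the member with the smallest p-values over time in both groups of control mice, and for *Icosl*, the member that differed most in the libraries labelled KO. Both are from RefSeq on GRCm38.p6, at chr16:38458683-38458932 and chr10:78069118-78069367, plus strand, 5′ to 3′, and capitals mark each CANNTG.
Cd80: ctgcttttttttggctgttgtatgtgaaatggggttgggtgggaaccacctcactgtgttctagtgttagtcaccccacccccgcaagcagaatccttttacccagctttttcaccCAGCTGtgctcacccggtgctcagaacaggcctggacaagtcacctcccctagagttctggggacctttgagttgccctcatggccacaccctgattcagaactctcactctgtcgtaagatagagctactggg
Icosl: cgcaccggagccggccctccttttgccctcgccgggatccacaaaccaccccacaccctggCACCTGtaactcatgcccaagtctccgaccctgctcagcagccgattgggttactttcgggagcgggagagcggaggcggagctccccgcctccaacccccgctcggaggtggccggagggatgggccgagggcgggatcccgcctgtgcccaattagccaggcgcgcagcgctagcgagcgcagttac
The table of promoters held 4 of the 5 members, all but *Cd86*. The E-box CACGTG, which reads the same on both strands, was in none of these 4 windows and in 6.02% of 32851 windows of the same length. The looser word CANNTG, which includes CACGTG and also covers both strands, was in all 4 and in 66.2% of all windows. The window of *Cd80* held 1 such word, CAGCTG, and that of *Icosl* held 1, CACCTG. *Cd274* also had CACCTG, whereas *Pdcd1lg2* had both CATGTG and CAGCTG. The windows of *Cd80* and *Cd274* (chr19:29367188-29367437) lie inside the gene spans given above and precede a transcript start within the gene. For these members the bases before the gene span were not searched. The study reported canonical E-boxes in the *Cd80* promoter region, at coordinates its text does not give. It also reported rhythmic BMAL1 binding there by chromatin immunoprecipitation in cultured DCs. The matches here are of letters in short windows and say nothing of binding or of that result.

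*Arntl*, the gene targeted in the KO genotype, was not lower in the libraries labelled KO. Its range was 8.67 to 24.4 CPM in tumour-injected control mice, 11.5 to 38.0 CPM in the libraries labelled KO and 12.3 to 34.8 CPM in sham-injected mice. Over the timepoints, its log2 difference between libraries labelled KO and tumour-injected control mice was 0.38 (SE 0.13, limma adjusted p = 0.0197). That between tumour-injected control mice and sham-injected mice was −0.52 (SE 0.12, limma adjusted p = 0.00113). The means were 14.8, 19.9 and 21.7 CPM in tumour-injected control mice, libraries labelled KO and sham-injected mice, so tumour-injected control mice were lowest. The deposited values are sums over the whole gene and cannot show the loss of an exon, and the text keeps to the label for these libraries. Depth on genes was 20088012 to 28962671 reads in tumour-injected control mice, 29406729 to 55799163 in libraries labelled KO and 28003328 to 49590055 in sham-injected mice. The 12 markers of mature migratory DCs summed to 18999 to 29507 CPM over all 44 libraries, led by *Ccr7*, the chemokine receptor that guides DCs to lymph nodes, and none of the 12 had a mean under 1 CPM. Markers of other cells were present and differed between groups. The 7 macrophage and monocyte genes summed to 393 to 1038 CPM in tumour-injected control mice, 854 to 2885 CPM in libraries labelled KO and 1684 to 3109 CPM in sham-injected mice. These sums were led by 1 gene, *Lyz2*, with mean log2 values of 9.17, 10.3 and 11.0 in the same order. No other gene of the list had a mean log2 value above 6.68 in any group. The 8 T cell genes in the table summed to 223 to 532, 352 to 821 and 448 to 958 CPM, respectively. In sorted bulk cells, fewer cells of a type and less RNA per cell cannot be told apart.

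The members differed widely in level. Per kilobase of the longest transcript, *Icosl* was the highest, with 158 ± 31.3 CPM per kb (SD, n = 20) in tumour-injected control mice. *Cd86* had 60.2 ± 10.7 CPM per kb (SD, n = 20), and *Cd274* had 50.7 ± 9.20 CPM per kb (SD, n = 20). The ranges of these neighbours in the order overlapped, from 43.7 to 85.5 for *Cd86* and from 34.0 to 63.9 for *Cd274*. *Pdcd1lg2* was lower, at 16.1 ± 4.62 CPM per kb (SD, n = 20). *Cd80* was the lowest, at 4.08 ± 1.02 CPM per kb (SD, n = 20), and its maximum of 5.96 lay under the *Pdcd1lg2* minimum of 9.79. Per kilobase of the mean transcript length, *Cd80* averaged 6.90 and these ranges overlapped, with a *Cd80* maximum of 10.09 and a *Pdcd1lg2* minimum of 10.02, while *Cd80* was still the lowest member within each of the 44 libraries. By the longest transcript, the full order held in 37 of 44 libraries, and in the other 7 *Cd274* and *Cd86* changed places.

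**Figure D1:**
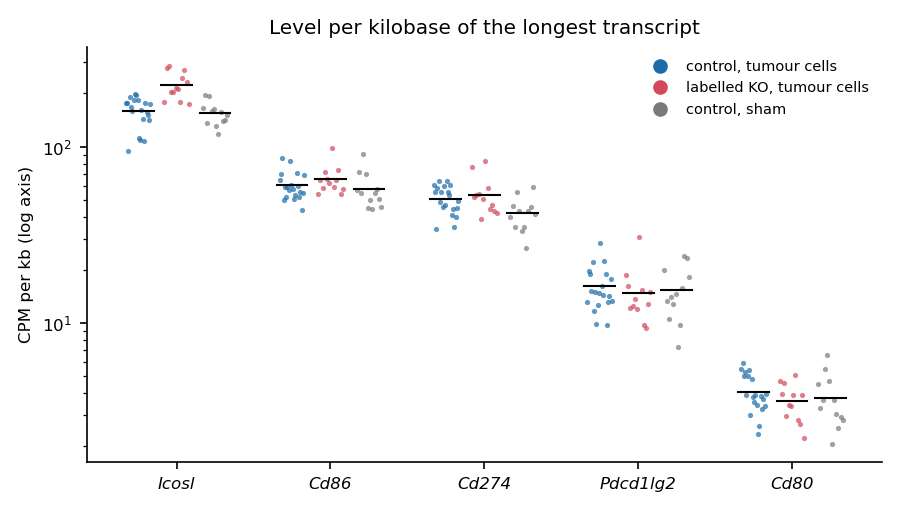
CPM per kb of the longest transcript (log axis) for each member, with 1 point per mouse, black bars for group means and colours for the groups. *Icosl* lies at the top and *Cd80* at the bottom in each group, and *Cd86* and *Cd274* overlap.

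Even the lowest member rested on many reads. *Cd80* had 168 to 804 reads per library, *Pdcd1lg2* 383 to 2430, *Cd274* 2773 to 13844, *Cd86* 2228 to 11470 and *Icosl* 6003 to 44990. Counting error, 0.08 on the log2 scale at the median of 299.5 *Cd80* reads in tumour-injected control mice, was smaller than the SD between mice of 1 timepoint, which was 0.26. The corresponding SD between mice was 0.24 for *Cd86*, 0.26 for *Icosl*, 0.25 for *Cd274* and 0.31 for *Pdcd1lg2*, against a median of 0.31 over all genes tested. In libraries labelled KO, *Pdcd1lg2* was the most variable member, with an SD of 0.47 against an all-gene median of 0.35.

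*Cd80* had the smallest p-values over time of the 5 members in both groups of control mice, though not in libraries labelled KO by the cosinor. In tumour-injected control mice, it had 17.4, 18.9, 15.9, 16.8 and 12.3 CPM at ZT3. It had 15.8, 17.2, 9.50, 15.3 and 12.1 CPM at ZT9. At ZT15 the values were 11.2, 12.3, 10.9, 7.39 and 8.23 CPM. At ZT21 they were 12.2, 10.3, 11.7, 10.7 and 12.5 CPM. All 5 libraries of ZT3 were above all 5 of ZT15, by a narrow margin, while ZT9 overlapped with every other timepoint. The mean of ZT3 was 16.3 ± 2.45 CPM (SD, n = 5), which is 1.62 times the mean of ZT15, 10.01 ± 2.10 CPM (SD, n = 5). A cosinor with a period of 24 h gave an amplitude of 0.36 on the log2 scale and a peak (acrophase) at 4.32 h (limma, unadjusted p = 0.000893, adjusted p = 0.203).

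In sham-injected mice, *Cd80* peaked at ZT9. Its values were 14.2, 10.5 and 11.5 CPM at ZT3 and 17.4, 20.8 and 14.8 CPM at ZT9. They were 6.57, 11.6 and 9.67 CPM at ZT15 and 8.02, 9.24 and 8.95 CPM at ZT21. The 3 libraries of ZT9 were above the other 9, and those of ZT21 were below those of ZT3. The mean at ZT9 was 17.7 ± 3.01 CPM (SD, n = 3), 2.02 times that at ZT21, 8.74 ± 0.634 CPM (SD, n = 3). The cosinor amplitude was 0.52, and the acrophase was 7.55 h (limma, unadjusted p = 0.0028, adjusted p = 0.613).

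In libraries labelled KO, *Cd80* had 14.8, 12.5 and 14.4 CPM at ZT3 and 9.46, 10.9 and 10.7 CPM at ZT9. At ZT15 it had 12.4, 16 and 8.98 CPM, and at ZT21 it had 8.48, 12.3 and 7.07 CPM. ZT3 lay above ZT9 and ZT21 without overlap, and ZT15 spanned nearly the whole range. The cosinor amplitude was 0.13 (limma, unadjusted p = 0.676), which does not show a flat course. The one-way permutation p-value for this group was 0.152, and it was 0.0487 without ZT15 replicate 3.

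The other members were read against this course. In tumour-injected control mice, 1 of 5 members, *Cd80*, had an unadjusted cosinor p under 0.05, against a background of 9.20% of all genes tested. In sham-injected mice it was again 1 of 5, *Cd80*, against 7.38%. In libraries labelled KO it was 0 of 5 (limma, unadjusted p from 0.332 to 0.945), against 10.5%. After adjustment over all genes, no member passed in any group, and the background was 0.0251% in tumour-injected control mice, 0% in libraries labelled KO and 0% in sham-injected mice. The unadjusted *Cd80* call in control mice held without any 1 of the 20 libraries (p from 0.00018 to 0.00304). The call in sham-injected mice held likewise over the 12 libraries (p from 0.000819 to 0.0104). The count in that group was 3 of 5 without ZT3 replicate 3, where *Icosl* (limma, unadjusted p = 0.0324) and *Pdcd1lg2* (unadjusted p = 0.04) joined *Cd80*, and 2 of 5 without ZT9 replicate 3, where *Cd86* did.

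**Figure D2:**
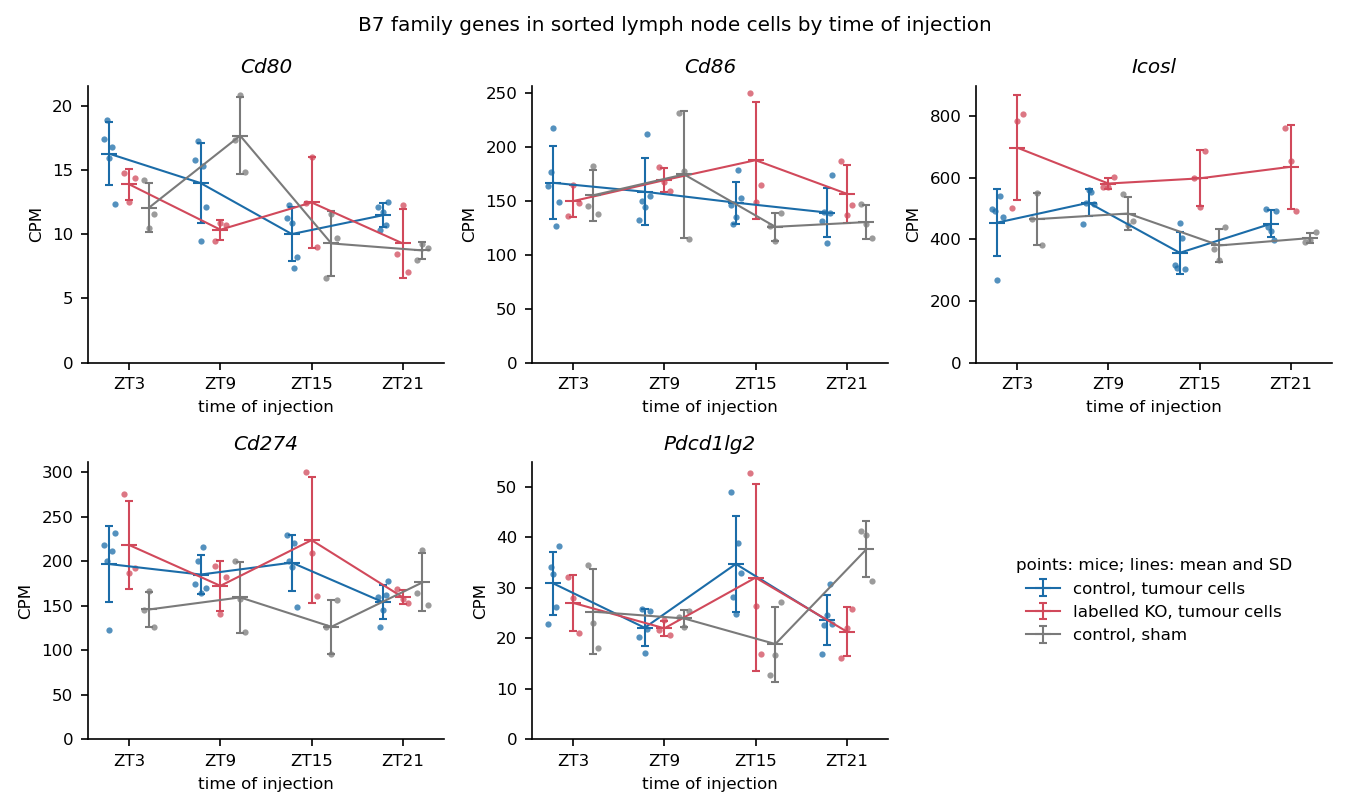
CPM of each member (y axis) against the time of injection (x axis) in the 3 groups. Points are mice, and lines join group means with SD. *Cd80* is highest at ZT3 in tumour-injected control mice and at ZT9 in sham-injected mice, *Icosl* is higher in the libraries labelled KO, and *Pdcd1lg2* is highest at ZT15 with tumour cells and at ZT21 in the sham condition.

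*Cd86*, which shares its receptors with *Cd80*, had no call over time in any group. In tumour-injected control mice it had 163, 176, 217, 127 and 149 CPM at ZT3. At ZT9 it had 132, 149.5, 144, 211 and 154 CPM. At ZT15 it had 146, 128, 135, 179 and 153 CPM, and at ZT21 it had 131, 139.6, 111, 139 and 174 CPM. All 4 timepoints overlapped, and the mean at ZT3 was 1.20 times that at ZT21. The cosinor amplitude was 0.12 with an acrophase of 6.31 h (limma, unadjusted p = 0.327). In libraries labelled KO the means ran from 149.5 ± 14.5 CPM (SD, n = 3) at ZT3 to 187 ± 54.1 CPM (SD, n = 3) at ZT15. In sham-injected mice they ran from 126 ± 13.0 CPM (SD, n = 3) at ZT15 to 174 ± 58.4 CPM (SD, n = 3) at ZT9, where 1 library reached 231 CPM. The ratio of these means was 1.39 (limma, unadjusted cosinor p = 0.172, exact one-way permutation p = 0.297). Without ZT9 replicate 3 of this group, the cosinor had an unadjusted p = 0.0304 (limma) and the exact one-way permutation test gave p = 0.0291.

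*Icosl* in tumour-injected control mice was lowest at ZT15. It had 497, 493, 267, 540.4 and 474 CPM at ZT3. It had 448, 517, 559, 555 and 514 CPM at ZT9. At ZT15 it had 316, 308, 452, 403 and 302 CPM, and at ZT21 it had 499, 441, 425, 397 and 491 CPM. ZT15 and ZT9 overlapped only through 1 library, and 1 library of ZT3, replicate 3, was the lowest of all 20. The mean at ZT9 was 1.46 times that at ZT15. On CPM, a one-way permutation test of time gave p = 0.0197, against 0.00379 for *Cd80*, whereas the cosinor of *Icosl* gave p = 0.145 (limma, unadjusted) with an acrophase of 5.12 h. The one-way permutation p-value was 0.0502 without ZT15 replicate 2 and 0.0505 without ZT15 replicate 5. Without ZT3 replicate 3, the cosinor of *Icosl* had a limma unadjusted p = 0.00216, so that *Cd80* was then not alone among the members in the group. This library stood apart as a whole, since its median-of-ratios size factor relative to library size, 0.813, was the lowest of the 44, a shift of 0.30 on the log2 scale. With that scaling and all libraries, the cosinor of *Icosl* had an unadjusted p = 0.0988 (limma). In sham-injected mice *Icosl* also had its highest mean at ZT9, 484 ± 55.0 CPM (SD, n = 3), and its lowest at ZT15, 380.1 ± 54.4 CPM (SD, n = 3), with an acrophase of 5.77 h (limma, unadjusted p = 0.118).

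*Cd274* in tumour-injected control mice had 218, 200.1, 123, 211 and 231 CPM at ZT3. It had 174, 199.8, 165, 216 and 169.8 CPM at ZT9. At ZT15 it had 229.7, 201, 193, 220.0 and 148 CPM, and at ZT21 it had 160.1, 126, 145, 162 and 177 CPM. The timepoints overlapped, with the lowest mean, 154 ± 19.4 CPM (SD, n = 5), at ZT21. The library with the lowest *Icosl*, ZT3 replicate 3, also had the lowest *Cd274*. The one-way permutation p-value was 0.12 with this library and 0.00942 without it, and the cosinor gave p = 0.32 (limma, unadjusted). Without ZT15 replicate 5 the one-way permutation test also gave p under 0.05 (p = 0.0441).

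*Pdcd1lg2* in tumour-injected control mice had 22.8, 34.2, 32.7, 26.2 and 38.4 CPM at ZT3. It had 20.2, 25.8, 17.1, 21.8 and 25.4 CPM at ZT9. At ZT15 it had 49.0, 28.1, 24.8, 38.9 and 32.9 CPM, and at ZT21 it had 16.9, 22.7, 24.7, 30.7 and 22.9 CPM. High means at ZT3 and ZT15 alternated with lower values at ZT9 and ZT21, a shape that a 24-h cosinor cannot follow. The one-way permutation test gave p = 0.0193, and the cosinor gave p = 0.785 (limma, unadjusted). In sham-injected mice the values were 34.6, 23.1 and 18.2 CPM at ZT3 and 24.2, 22.2 and 25.3 CPM at ZT9. They were 12.7, 16.8 and 27.1 CPM at ZT15 and 41.2, 40.5 and 31.3 CPM at ZT21. ZT21 lay above ZT9 and ZT15 without overlap, and the mean of ZT21 was 2.00 times that of ZT15. The exact permutation p-value in this group was 0.0422 on CPM and 0.0611 on the log2 scale, and it went above 0.05 when any 1 of 8 of the 12 libraries was left out, reaching 0.127 without ZT21 replicate 1. These 15 one-way tests, for 5 members in 3 groups, were not adjusted for their number.

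To compare *Cd80* with its relatives directly, the difference between the log2 values of *Cd80* and of each relative was fitted over time. In tumour-injected control mice, the difference from *Cd274* was −3.54 ± 0.456 (SD, n = 5) at ZT3 and −4.25 ± 0.33 (SD, n = 5) at ZT15. Its cosinor amplitude was 0.36, with the peak at 2.90 h (limma adjusted p = 0.04). The difference from *Pdcd1lg2* ran from −0.66 ± 0.276 (SD, n = 5) at ZT9 to −1.73 ± 0.542 (SD, n = 5) at ZT15, with an amplitude of 0.45 (limma adjusted p = 0.0541). The differences from *Cd86* (limma adjusted p = 0.158) and *Icosl* (limma adjusted p = 0.448) did not pass. The distance from *Icosl* was the least variable over time, with an amplitude of 0.18. Thus 1 of 4 relatives passed, against 38.0% of all other genes tested. The difference from *Pdcd1lg2* lay near the threshold and passed in 5 of 9 alternative fits (limma adjusted p from 0.00977 to 0.0742 over the 9) and when ZT3 replicate 5, ZT15 replicate 2 or ZT21 replicate 1 was left out. *Cd274* also passed in each of these, which made it 2 of 4. The call for *Cd274* was lost when any 1 of 10 of the 20 libraries was left out (adjusted p from 0.0101 to 0.124).

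In sham-injected mice, the difference between *Cd80* and *Pdcd1lg2* ran from −0.44 ± 0.332 (SD, n = 3) at ZT9 to −2.04 ± 0.271 (SD, n = 3) at ZT21. It had the largest amplitude of the 4 relatives in this group, 0.80 (limma adjusted p = 0.0398). That between *Cd80* and *Cd274* had an amplitude of 0.57 (limma adjusted p = 0.0452). Thus 2 of 4 passed, against 36.8% of all other genes, and both calls depended on single libraries, with adjusted p reaching 0.113 and 0.128 when 1 was left out. Both were also lost with the replicate number as a block (limma adjusted p = 0.0703 for *Pdcd1lg2* and 0.0745 for *Cd274*), and that for *Cd274* by ordinary least squares (adjusted p = 0.0534). In libraries labelled KO, 0 of 4 relatives passed (limma adjusted p from 0.959 to 0.994, each unadjusted p over 0.05), against 0.0251%.

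**Figure D3:**
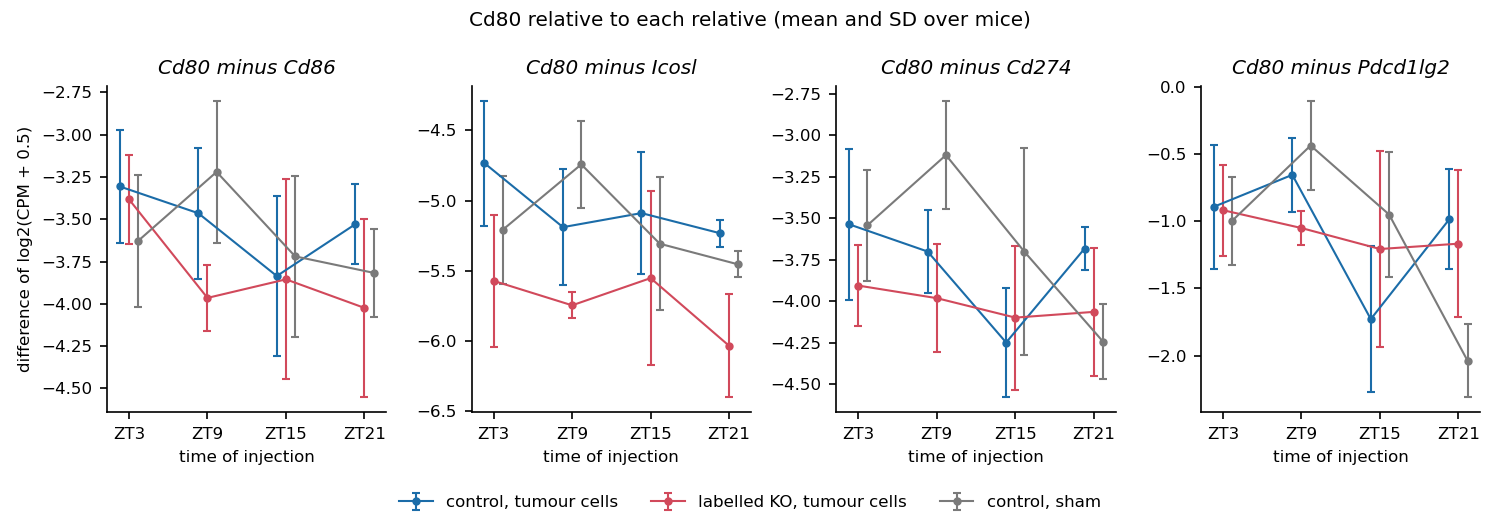
Difference of log2(CPM + 0.5) between *Cd80* and each relative (y axis) against the time of injection (x axis), as mean and SD over mice in the 3 groups. The difference from *Pdcd1lg2* reaches −1.73 at ZT15 with tumour cells and −2.04 at ZT21 in the sham condition.

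The libraries labelled KO were then compared with control mice, both with tumour cells, for the level over the 4 timepoints. *Icosl* rose by 0.51 on the log2 scale (SE 0.10, 95% interval 0.30 to 0.71, limma adjusted p = 0.000302), from 445 ± 88.0 CPM (SD, n = 20) to 628 ± 111 CPM (SD, n = 12). It was the 1 member of 5 that passed, against a background of 32% of all genes tested, and the median of all genes was 0.10. The call held with each of the 32 libraries left out (adjusted p from 0.000156 to 0.000886). The intervals of the other members included 0. The log2 difference was −0.16 (95% interval −0.38 to 0.06) for *Cd80* and 0.11 (−0.07 to 0.30) for *Cd86*. It was 0.06 (−0.13 to 0.26) for *Cd274* and −0.14 (−0.40 to 0.12) for *Pdcd1lg2*.

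*Icosl* in libraries labelled KO had 501, 784 and 806 CPM at ZT3, and 570.0, 571 and 602 CPM at ZT9. It had 600.1, 506 and 687 CPM at ZT15, and 761, 653 and 491 CPM at ZT21. All libraries labelled KO were above all control libraries at ZT9 and at ZT15, and the groups overlapped at ZT3 and ZT21. The share of all genes that separated in this way was not counted, so no result is drawn from it. The largest difference was at ZT15, where control mice were lowest, with 0.75 on the log2 scale (SE 0.20, limma adjusted p = 0.012). It was 0.63 at ZT3 (limma adjusted p = 0.0594), 0.17 at ZT9 (limma adjusted p = 0.658) and 0.48 at ZT21 (limma adjusted p = 0.0995). Without ZT15 replicate 3 of the libraries labelled KO, the difference at ZT15 was 0.65 (limma adjusted p = 0.0669). *Icosl* at ZT15 was the only member and timepoint of 20 that passed, against backgrounds of 5.20% at ZT3, 8.94% at ZT9, 14.8% at ZT15 and 14.2% at ZT21. The count of 1 was not stable. It was 0 without ZT15 replicate 3 of the libraries labelled KO. It was 2 with a filter of 10 CPM, with an intensity trend, without ZT3 replicate 3 or 4 of the control mice and without ZT3 replicate 1 or ZT21 replicate 1 of the libraries labelled KO. It was 3 with array weights and without ZT21 replicate 3 of the libraries labelled KO.

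Markers of some cell types moved in the same comparison. The 3 Langerhans cell genes summed to 81.2 to 143 CPM in tumour-injected control mice, 115 to 211 CPM in libraries labelled KO and 101 to 150 CPM in sham-injected mice, and 3 of 3 were higher in the libraries labelled KO (adjusted p under 0.05), where 22.3% of all genes were higher. Their most abundant gene, *Epcam*, was higher by 0.67 (SE 0.09, limma adjusted p = 5.69e-07). Of the macrophage and monocyte genes, 6 of 7 were higher, as were 4 of 6 genes of type 2 conventional DCs. Of the markers of type 1 conventional DCs, 1 of 6 was higher and 1 lower. *Icosl* in sham-injected mice was 433 ± 66.5 CPM (SD, n = 12). The part of the listed cell types in the *Icosl* difference was not tested.

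Whether the course over time differed by genotype was tested with an interaction. None of the 5 members had an unadjusted p under 0.05 (limma), against 18.3% of all genes, and none passed after adjustment, against 0.0502%. *Cd80* had the smallest unadjusted p, 0.0861 (limma adjusted p = 0.332). It was 0.0198 without ZT15 replicate 3 of the libraries labelled KO, 0.0308 without their ZT21 replicate 2 and 0.0328 without ZT9 replicate 3 of the control mice. With array weights, *Icosl* had an unadjusted p = 0.0344 (limma). The log2 difference in *Cd80* between libraries labelled KO and control mice was −0.21 at ZT3, −0.39 at ZT9, 0.29 at ZT15 and −0.32 at ZT21, with 95% intervals that all included 0. The absence of a cosinor call in the libraries labelled KO therefore does not show that their *Cd80* course differed from that of control mice.

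The same tumour-injected control mice were compared with sham-injected mice, so this comparison and the previous one share 20 libraries. Averaged over time, *Cd274* rose by 0.28 (SE 0.11, 95% interval 0.06 to 0.50, limma adjusted p = 0.0444) with tumour cells, from 152 ± 33.0 CPM (SD, n = 12) to 184 ± 33.3 CPM (SD, n = 20). It was 1 of 5 members, against a background of 37.0% of all genes, with a median of all genes of −0.04. The call was lost when any 1 of 17 of the 32 libraries was left out, with differences between 0.22 and 0.34 and adjusted p of up to 0.108. It was also lost with the replicate number as a block (0.23, limma adjusted p = 0.158) and with all genes of the table (0.28, limma adjusted p = 0.0511). *Cd80* differed by 0.14 (95% interval −0.08 to 0.36) and *Cd86* by 0.08 (−0.12 to 0.27). *Icosl* differed by 0.02 (−0.15 to 0.20) and *Pdcd1lg2* by 0.10 (−0.22 to 0.42).

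The 2 PD-1 ligands differed most at ZT15. *Pdcd1lg2* rose by 0.89 on the log2 scale (SE 0.24, limma adjusted p = 0.0109), from a mean of 18.9 CPM in sham-injected mice to 34.7 CPM with tumour cells. *Cd274*, for which the sham-injected mice had 127, 96.0 and 156 CPM at ZT15, rose by 0.66 (SE 0.20, limma adjusted p = 0.0208). In both cases 1 or more libraries of the groups overlapped. The call for *Pdcd1lg2* was lost without ZT15 replicate 1 or 2 of the sham-injected mice (log2 difference 0.65 and 0.84, limma adjusted p = 0.0968 and 0.0654). That for *Cd274* was lost without their replicate 2 (0.48, limma adjusted p = 0.193) and just lost without ZT15 replicate 1 of the tumour-injected control mice (0.61, limma adjusted p = 0.0501). At ZT21 the direction of both values was the opposite. *Pdcd1lg2* differed by −0.68 (SE 0.24, limma unadjusted p = 0.00849, adjusted p = 0.0767), with all 5 libraries below the 3 of sham-injected mice, and *Cd274* differed by −0.19 (limma adjusted p = 0.64).

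Of the 20 members and timepoints of this comparison, 2 passed, both at ZT15, where the background was 17.6%. None passed at ZT3, ZT9 or ZT21, where it was 10.5%, 16.3% and 9.21%. The count of 2 lay between 0 and 3 with 1 library left out and between 2 and 3 under the other alternatives. *Cd80* had log2 differences of 0.41 at ZT3 (limma adjusted p = 0.174), −0.34 at ZT9 (limma adjusted p = 0.236), 0.11 at ZT15 (limma adjusted p = 0.73) and 0.37 at ZT21 (limma adjusted p = 0.244). At ZT21 all 5 *Cd80* libraries with tumour cells were above the 3 sham libraries. Neither for this separation nor for that of *Pdcd1lg2* at ZT21 was the share of all genes counted.

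**Figure D4:**
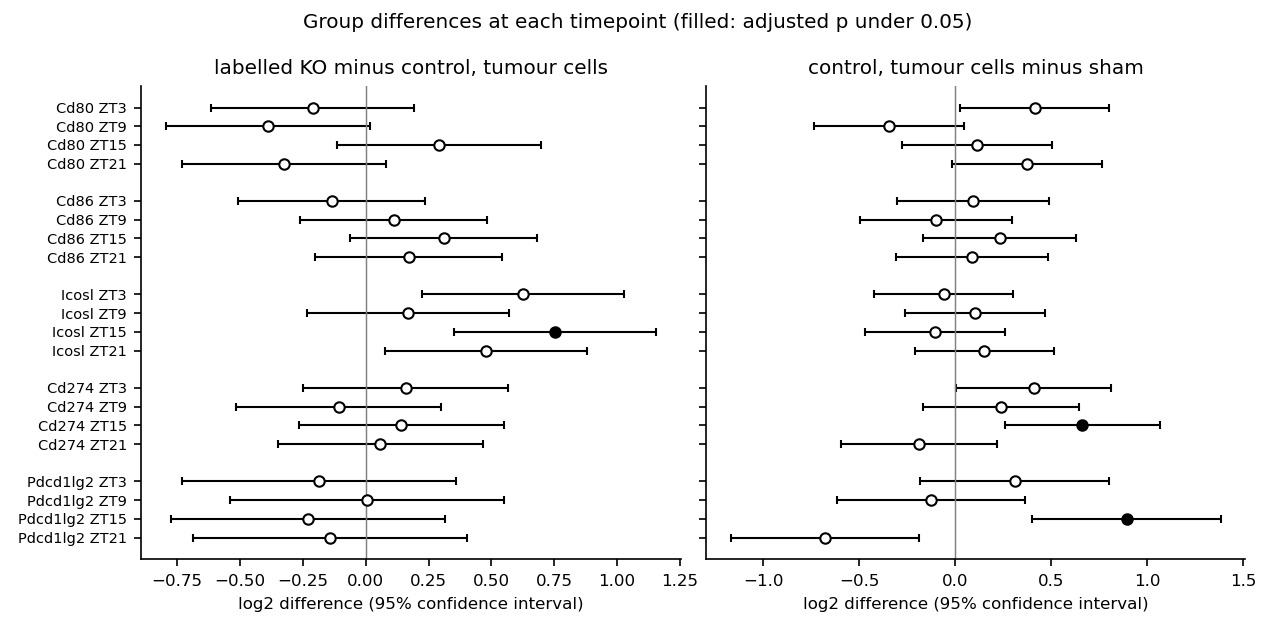
Log2 difference (x axis) between libraries labelled KO and tumour-injected control mice, and between tumour-injected control mice and sham-injected mice, for each member and timepoint. Bars are 95% confidence intervals, and filled points have an adjusted p under 0.05: *Icosl* at ZT15 in the first comparison, *Cd274* and *Pdcd1lg2* at ZT15 in the second.

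The interaction of treatment with time had an unadjusted p under 0.05 for 3 of 5 members (limma), against 11.9% of all genes. These were *Pdcd1lg2* (unadjusted p = 0.000699), *Cd80* (unadjusted p = 0.0329) and *Cd274* (unadjusted p = 0.0366). After adjustment none passed (limma adjusted p = 0.141 for *Pdcd1lg2*), nor did any other gene (0%). *Pdcd1lg2* stayed under 0.05 without any 1 of the 32 libraries (unadjusted p from 8.4e-05 to 0.00382). *Cd80* went above 0.05 when any 1 of 5 libraries was left out (up to 0.131), with an intensity trend (0.0627) and with array weights (0.0518), and *Cd274* when any 1 of 8 was (up to 0.134).

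In the same comparison, markers of several other cells were lower with tumour cells. Of the genes tested, 7 of 8 for T cells, 6 of 7 for macrophages and monocytes, 5 of 5 for NK cells and 6 of 6 for type 1 conventional DCs were lower (adjusted p under 0.05), against 24.2% of all genes. At ZT15 the summed T cell markers were 425 ± 35.4 CPM (SD, n = 5) with tumour cells and 711 ± 214 CPM (SD, n = 3) in the sham condition, and at ZT21 they were 432 ± 80.4 CPM (SD, n = 5) and 481 ± 42.9 CPM (SD, n = 3). Their part in the differences of *Cd274* and *Pdcd1lg2* was not tested.

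The receptors were measured in the same sorted cells. *Icos*, whose product binds ICOSL, was the most abundant of the 4. Its mean was 51.7 CPM (SD 12, n = 20) in tumour-injected control mice, 101 CPM (SD 27.2, n = 12) in libraries labelled KO and, in sham-injected mice, 167 CPM (SD 64.3, n = 12). It rose by 0.94 (SE 0.10, limma adjusted p = 2.24e-08) in libraries labelled KO and fell by 1.65 (SE 0.11, limma adjusted p = 2.18e-12) with tumour cells against the sham condition. *Pdcd1*, which encodes PD-1, had log2 differences of 0.81 (limma adjusted p = 0.00225) and −1.09 (limma adjusted p = 4.3e-06), respectively. *Cd28* differed by −0.14 (limma adjusted p = 0.5) and −0.37 (limma adjusted p = 0.0285). *Ctla4* differed by 0.39 (limma adjusted p = 0.0822) and −0.43 (limma adjusted p = 0.0901). Thus 2 of 4 receptors were higher in the first comparison (22.3% of all genes were), and 3 of 4 were lower in the second (24.2% of all genes were). T cell markers were read beside them. Of 8 tested, 3 were higher in libraries labelled KO, *Cd3e* by 0.61, *Cd3g* by 0.45 and *Cd4* by 0.30 (limma adjusted p = 0.000155, 0.00556 and 0.0257). None passed as lower, and the genes that did not pass differed by −0.30 to 0.29. With tumour cells, 7 were lower. Their part in the receptor differences was not tested.

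In tumour-injected control mice, the fitted peaks of *Cd80*, at 4.32 h, and of *Icos*, at 20.8 h, lay on either side of lights on in the 24-h cycle. *Icos* was the only receptor with an unadjusted p under 0.05 (limma, unadjusted p = 0.0034). T cell markers were read with it. Of 8 tested, 6 (*Cd3d*, *Cd3e*, *Cd3g*, *Cd247*, *Cd8b1* and *Lck*, genes of the T cell receptor complex and its signalling) had an unadjusted cosinor p under 0.05 in this group, against 9.20% of all genes, with acrophases from 18.9 to 21 h, and none passed after adjustment. Their summed level was lowest at ZT9, 279 ± 55.5 CPM (SD, n = 5). The part of T cells in the course of *Cd80* was not tested. In the other groups, 1 of 8 T cell genes (libraries labelled KO, background 10.5%) and 0 of 8 (sham-injected mice, background 7.38%) had an unadjusted p under 0.05, counts near those shares. Of the 4 receptors, 1 in libraries labelled KO, *Ctla4* (limma, unadjusted p = 0.00369, acrophase 21.1 h), and 0 in sham-injected mice had an unadjusted p under 0.05. The difference between groups in these counts was not tested.

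**Figure D5:**
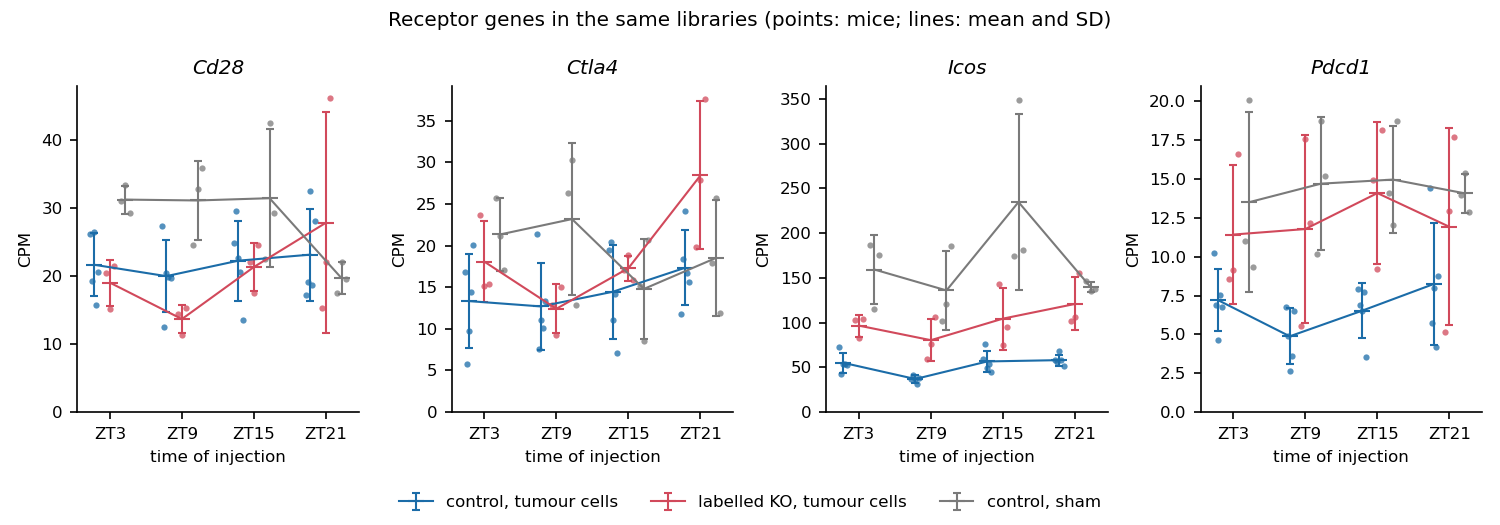
CPM (y axis) of the receptor genes against the time of injection (x axis) in the 3 groups. Points are mice, and lines join group means with SD. *Icos* and *Pdcd1* are lowest in tumour-injected control mice and highest on average in sham-injected mice.

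Genes known to act on B7 levels were listed next. They comprise CD40 and interferon-γ receptor genes, NF-κB and STAT factors, *Irf1*, *Irf4*, *Cmtm4* and *Cmtm6*, the last of which encodes a protein that stabilises PD-L1. Of 14 listed genes, 13 were tested, and 0 of 13 had an unadjusted cosinor p under 0.05 in tumour-injected control mice (limma, 0 also after adjustment), against 9.20% of all genes, with a median amplitude of 0.09. It was 2 of 13, *Cd40* and *Ifngr1*, in libraries labelled KO (background 10.5%) and 0 of 13 in sham-injected mice (background 7.38%), and none passed after adjustment. These counts were near the background. Averaged over time, 2 of 13 were higher and 1 lower in libraries labelled KO, against the background of 32%, with a median difference of −0.03 against 0.10 over all genes. With tumour cells against the sham condition, 3 were higher and 1 lower, against 37.0%, with a median of 0.14 against −0.04. The genes that passed are named here after their values were seen. *Ifngr1*, which encodes a chain of the interferon-γ receptor, had by far the largest differences. It had 65.5 ± 9.73 CPM (SD, n = 20) in tumour-injected control mice, 134 ± 27.8 CPM (SD, n = 12) in libraries labelled KO and 159 ± 28.3 CPM (SD, n = 12) in the sham condition. It rose by 1.01 (SE 0.08, limma adjusted p = 1.9e-11) in libraries labelled KO and fell by 1.27 (SE 0.07, limma adjusted p = 2.04e-14) with tumour cells. *Ifngr2*, the other chain, differed by 0.13 (limma adjusted p = 0.0279) in libraries labelled KO, close to the median of all genes. *Relb*, an NF-κB factor, fell by 0.20 (limma adjusted p = 0.0145) there and rose by 0.24 (limma adjusted p = 0.00307) with tumour cells. *Cd40* rose by 0.23 (limma adjusted p = 0.00204) and *Rel* by 0.25 (limma adjusted p = 0.0203) with tumour cells. Of 12 markers of mature migratory DCs, 0 had an unadjusted cosinor p under 0.05 in any group, against the same 3 background shares. Of 8 other B7 and butyrophilin genes, 1 was tested, *Cd276*, which encodes B7-H3. It averaged 1.87 CPM in tumour-injected control mice and passed in neither comparison (limma adjusted p = 0.483 and 0.152).

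Whether members varied together among mice of 1 timepoint was examined in pairs. In the 20 tumour-injected control mice, 10 pairs were compared after subtraction of the timepoint means. *Icosl* and *Cd274* had the largest Pearson r, 0.66 (permutation p = 0.0451), with Spearman's rho of 0.45 (permutation p = 0.0713). Without the 2 libraries farthest from the median, r was 0.46, and in the 24 libraries of the other groups it was 0.05. The other 9 pairs had r from −0.35 to 0.25 (permutation p from 0.191 to 0.861). After Benjamini-Hochberg adjustment over the 10 pairs, none passed (smallest adjusted p = 0.451). With median-of-ratios scaling, r was 0.44 for *Icosl* and *Cd274* and −0.48 for *Icosl* and *Pdcd1lg2*. It was then 0.43 for *Cd86* and *Pdcd1lg2* and −0.32 for *Cd80* and *Icosl*. *Cd80* and *Cd86* had r = −0.07 (permutation p = 0.776) and rho = −0.09 (permutation p = 0.71). The neighbours *Cd274* and *Pdcd1lg2* had r = 0.13 (permutation p = 0.628) and rho = 0.28 (permutation p = 0.267) in control mice and r = 0.54 in the 24 other libraries. In those 24 libraries the largest r was that of *Cd86* and *Cd274*, 0.63, against −0.10 in control mice, and *Cd86* and *Icosl* had 0.46 against −0.22. The other-library values are given with no test.

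Over all 44 libraries, which share group and timepoint effects, likeness was described by Pearson's r on log2 values among 11962 other genes. *Cd274* was the 17th gene for *Pdcd1lg2*, with r = 0.50, and no other member came as near to another. The genes most like *Cd80* were *Cytip* (r = 0.53), *Ston2* (0.50), *Crebrf* (0.50), *Spred3* (0.49) and *Nrg1* (0.49), of which the last 2 were at under 1 CPM on average. *Icosl* had much closer neighbours, *Slc46a3* (r = 0.91), *Rnf19a* (0.90) and *Zc3h14* (0.89). For *Cd86* they were *Cyp51* (r = 0.68), *Idi1* (0.67), both of cholesterol synthesis, and *Il2ra* (0.66). For *Cd274* they were *Edem1* (r = 0.77), *Sema4a* (0.75) and *Prdm1* (0.73), and for *Pdcd1lg2* they were *Efhd2* (r = 0.63), *Glipr2* (0.61) and *AA467197* (0.61).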

How the data were processed

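RNA was read from CD45+CD11c+MHCIIhigh cells of 44 mice (SMART-Seq v4, Nextera XT, single 50-base reads). Per the labels and methods, the authors aligned to mm10 with STAR, counted on genes with HTSeq 0.9.1, scaled by library size with edgeR and deposited CPM for 14699 genes (column sums of 1000000). Of the values above 0, 85.9% to 87.8% per library were whole reads (tolerance 0.001 reads), which gives the depth; all 5 members were whole in all 44 libraries. The rest are fractional reads, so no count test was run. Log2(CPM + 0.5) was fitted with limma 3.58.1 in R 4.3.3 (empirical Bayes, Benjamini-Hochberg adjustment over the 11963 genes that reached 1 CPM in 5 or more libraries), as a 24-h cosinor per group, as averaged and per-timepoint differences and as interactions with timepoint. One-way F tests on CPM and correlations used permutation of labels in Python 3.11.15 (scipy 1.17.1, numpy 2.4.6, pandas 2.3.3), two-sided where signed, exact over 369600 arrangements for 12 libraries and with 100000 resamples for 20. The models were tested on simulated data.

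The members and lists were chosen with earlier results of these data known. Genes are named by a rule: the members, *Arntl*, the 4 receptors, the 5 genes most alike *Cd80* and the 3 most alike each relative, listed genes with an unadjusted cosinor p under 0.05 in tumour-injected control mice, and the most abundant gene of each cell type list. *Ifngr1*, *Ifngr2*, *Relb*, *Cd40*, *Rel*, *Cd4* and *Cd276* lie outside this rule and were named after their values were seen. Values for named genes were limited to those a result turns on. Lists cover 12 cell types. *Vtcn1*, *Vsir*, *Btn2a2*, *Marchf1*, *Trac*, *Trbc2* and *Ly6g* were not analysed here. Gene positions are from RefSeq and transcript lengths from GENCODE vM21. Alternatives were the pseudocount, scaling, filter, moderation, array weights, a replicate block and leaving out each library. No pair of libraries held identical values. Where groups or timepoints did not overlap, the share of all genes that separated likewise was not counted. Each library is 1 mouse.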

Additional observations from a re-analysis of the deposited data

Results flagged for a closer look

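In the 20 groups of 5 tumour-injected control mice (5 members at 4 timepoints), 3 values stood far from the other 4 of their group by Dixon's test at the 95% level. Chance alone gives about 1 in 20. At ZT3, replicate 3 had the lowest *Icosl*, 267 CPM, and the lowest *Cd274*, 123 CPM. This library also had the lowest median-of-ratios size factor of the 44, 0.813, and its part in both values was not tested. At ZT9, replicate 4 had the highest *Cd86*, 211 CPM.

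Between tumour-injected control mice and sham-injected mice, the interaction with time had an unadjusted p under 0.05 (limma) for *Pdcd1lg2* (unadjusted p = 0.000699), *Cd80* (unadjusted p = 0.0329) and *Cd274* (unadjusted p = 0.0366), of 10 interactions tested for the members. None passed after adjustment over all genes.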

How the results depend on the processing

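Of 2169 values recomputed under alternatives, 2008 kept their direction and their side of the threshold, or stayed near the reported value where there was no test. This total includes results that had no call to lose, so it does not measure how stable the calls were. In sham-injected mice, the *Cd80* minus *Cd274* call was lost when any 1 of 9 of the 12 libraries was left out. The call for *Cd80* minus *Pdcd1lg2* was lost with any 1 of 7. The cause of the changes was not tested. Median-of-ratios scaling moved the median of all genes from 0.10 to 0.01 (libraries labelled KO minus control) and from −0.04 to 0.01 (tumour cells minus sham), and the share of calls that were higher from 69.8% to 50.5% and from 34.6% to 45.8%. It turned the *Cd274* genotype difference to −0.031, as did array weights (−0.0037). With an intensity trend, 2 members instead of 1 had a time course in sham-injected mice, the second being *Icosl* (limma, unadjusted p = 0.039). With array weights, 2 had one in tumour-injected control mice, again with *Icosl* (limma, unadjusted p = 0.00571), and 1, *Icosl*, had a genotype by time interaction (limma, unadjusted p = 0.0344). With all genes of the table, 0 members had a treatment difference over time (*Cd274*, limma adjusted p = 0.0511). With the mean transcript length, *Cd80* had 6.90 CPM per kb in tumour-injected control mice.

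Replicate numbers did not pair the mice. Same-numbered mice correlated above 0.1 in 3 of 30 pairs of timepoints in tumour-injected control mice and in 0 of 18 in each of the other groups. The median r of same-numbered pairs was −0.011 in tumour-injected control mice, 0.011 in libraries labelled KO and −0.015 in sham-injected mice. For pairs with other numbers it was 0.0013, 0.0048 and 0.015, respectively. With the number as a block, 0 members had a treatment difference over time (*Cd274* 0.23, limma adjusted p = 0.158), and *Icosl* turned to −0.012. The differences of *Cd80* from *Cd274* and *Pdcd1lg2* in sham-injected mice also lost their calls.

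Leaving out single libraries moved the members with a time course from 1 to 2 in tumour-injected control mice and from 1 to 3 in sham-injected mice. Those with a genotype by time interaction lay between 0 and 1, and those with a treatment difference between 0 and 1. The one-way p of *Cd80* in libraries labelled KO lay between 0.0487 and 0.291, and the treatment difference of *Pdcd1lg2* between −0.00044 and 0.162.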

Other observations

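Other lists were read in the same libraries. In libraries labelled KO against tumour-injected control mice, 4 of 5 NK cell genes, 3 of 5 plasmacytoid DC genes and 1 of 7 B cell genes were higher, and none were lower (limma, adjusted p under 0.05), against 22.3% of all genes higher, so that the B cell count was below that share. With tumour cells against the sham condition, 4 of 5 plasmacytoid DC genes, 4 of 6 type 2 conventional DC genes, 3 of 7 B cell genes and 1 of 3 Langerhans cell genes were lower, and none were higher, against 24.2% of all genes lower, to which the Langerhans cell count was near. Granulocyte (2 tested), melanoma (1 tested) and erythroid genes (2 tested) passed in neither direction, apart from 1 erythroid gene that was higher with tumour cells. Melanoma markers summed to 0.138 to 2.16 CPM in tumour-injected control mice and 0.565 to 3.28 CPM in sham-injected mice.

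In tumour-injected control mice, other listed genes with an unadjusted cosinor p under 0.05 (limma) were *Epcam* (unadjusted p = 0.0466) and *Irf8* (unadjusted p = 0.0309), with acrophases of 5.02 and 5.33 h. Later acrophases, between 14.3 and 21.4 h, were found for *Wdfy4*, *Xcr1*, *Clec10a*, *Mgl2*, *Ccr9* and *Bst2*.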
